A study of Strophostyles helvola with 12 samples.

Results

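The response of Strophostyles helvola roots to salt was examined here in the Beach genotype, a line collected from sandy soil on the coast of North Carolina, by comparing 3 libraries from plants given 400 mM NaCl with 3 libraries from plants given water. These 6 libraries were taken by their labels, from the 12 of a series that also holds an inland genotype. Plants were 10 d old when treatment began and received 50 mL of solution per day. The salt dose was set below the median lethal dose of this genotype. The control and treated groups share genotype, tissue, age and growth conditions. Each replicate was made from the whole roots of 3 plants, of which 1 was collected at 3 h, 1 at 24 h and 1 at 7 d after the final concentration was reached, and equal amounts of ground root were pooled. A value therefore averages over the 3 times, and an early change cannot be told apart from a late one. A change per cell and a change in the make-up of root cell types cannot be told apart either.

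Salt acts on a root in more than one way. It lowers the water potential of the soil, which draws water from the cells, and it brings sodium and chloride into the root, where sodium competes with potassium. Plant roots are known to answer with abscisic acid signalling, export of sodium from the cell or into the vacuole, synthesis of compatible solutes, and changes of growth and cell wall. The genes measured here are common bean loci, to which the reads of this close relative were aligned, and the deposited table gives them by locus identifier without a name. No role is therefore assigned to any of them, and markers of root tissue could not be looked up. The response is described by its size, its breadth, the genes that carried most of it and their order along the chromosomes.

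The table lists 27191 loci. Beach libraries held 29205979 to 33300428 counts, with no difference in depth between the groups beyond the spread of replicates (treatment minus control -255616 counts, two-sided exact permutation test, p = 1, where the smallest p that 3 against 3 allows is 0.1). Read levels are given as CPM, a count scaled to its library total and not corrected for gene length. For the test, 16154 loci with more than 5 CPM in at least 3 of the 6 libraries were kept, and these held between 98.9% and 99.1% of all counts. No read was counted in any of the 6 libraries on 2975 loci. According to the study's sample list, the RNA integrity number was lower in every treated library than in every control library. Its part in the results cannot be told apart from that of salt in these libraries, and was not tested.

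Of the 16154 genes, 12.5% were differentially expressed (DEGs) by edgeR's quasi-likelihood test, with limits of 2 on the fold change and 0.05 on the Benjamini-Hochberg fdr. Genes higher with salt made up 6.75% of those tested (1090 genes) and genes lower with salt 5.75% (929 genes). The fitted rises reached further than the fitted falls. At least a 4-fold change was fitted for 331 of the higher DEGs (30.4%) and 179 of the lower DEGs (19.3%). At 8-fold the counts were 152 (13.9%) and 57 (6.14%), at 16-fold 79 and 19, and at 64-fold 28 and 2. The median log2 fold change was 1.57 among higher DEGs and -1.38 among lower DEGs. Over all tested genes it was -0.02, with the central 80% of genes between -0.74 and 0.71. Fitted changes beyond this range depend on the prior count where a group holds few reads, so the most extreme fitted values are no measure of size. The counts by fold also include 299 higher and 251 lower DEGs that passed the filter only through the group where they were high. Such genes had to differ, and no count by fold was made without them.

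**Figure D1:**
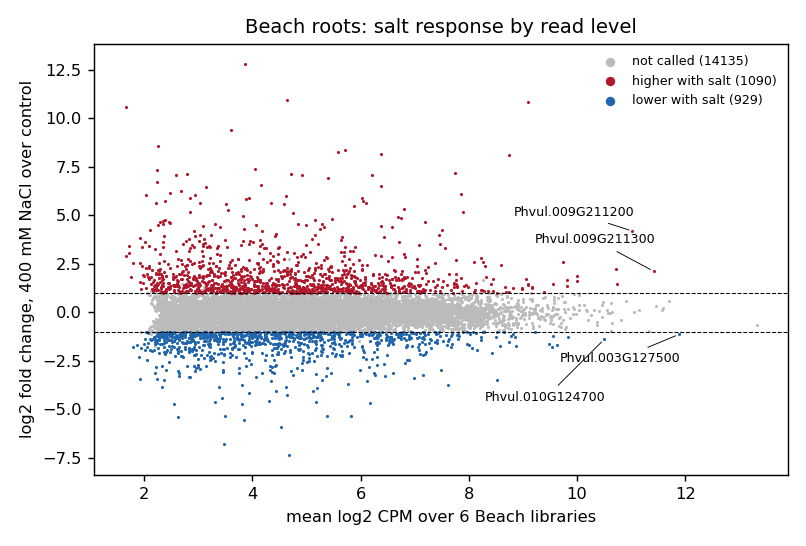
Log2 fold change of Beach roots at 400 mM NaCl over control (vertical axis) against the mean log2 CPM over the 6 Beach libraries (horizontal axis), 1 point per tested gene, with dashed lines at a 2-fold change. As fitted, the 1090 genes higher with salt extend further from 0 than the 929 genes lower with salt. Both sets include genes that passed the filter through a single group. The 4 labelled genes lie at high read levels.

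Many smaller changes were also past the fdr limit. By the fdr limit alone 7047 genes passed. Of these, 3730 were lower and 3317 higher with salt, the reverse of the order among DEGs. Of the 7047 genes, 5028 changed by less than 2-fold and 2897 (41.1%) by less than 1.5-fold. At least a 2-fold change was fitted for 28 genes that did not pass the fdr limit. All 3 treated libraries lay above all 3 control libraries for 27.2% of tested genes (4401 genes), and below them for 31.5% (5092 genes). These positions used CPM by library totals, without the TMM scaling of the test. The median log2 fold change over tested genes was -0.04 by library totals and -0.02 with TMM. Among the DEGs the groups were separate in this sense for 1089 of the 1090 higher genes and 923 of the 929 lower genes. Both counts follow largely from the call itself. The fdr limit was thus passed by far more genes than the limit on fold change, and the genes that failed it despite a 2-fold change were few.

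Genes are named here by the size of their change in mean CPM, among DEGs with at least 10 counts in every library and no overlap between the groups. By this rule the groups of each named gene are separate. The largest gains were those of a pair of adjacent loci on chromosome 9. Phvul.009G211200 was at 282, 216 and 160 CPM in control replicates 1, 2 and 3 and at 3952, 3276 and 4525 CPM in treated replicates 1, 2 and 3. All treated libraries lay more than 10-fold above every control library. Its mean went from 219 ± 61.2 to 3918 ± 625 CPM (SD, n = 3), a log2 fold change of 4.18 or 18.2-fold (standard error 0.24, edgeR fdr = 5.2e-05). Ranked by CPM over all loci, it moved from place 715 in control to place 4 in treated roots.

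Its neighbour Phvul.009G211300 was already well expressed in control roots, at 1294 CPM in replicate 1, 815 in replicate 2 and 992 in replicate 3. With salt it was at 4607, 4103 and 4500 CPM. The treated libraries lay closer together than those of the locus before it. The log2 fold change was 2.11, or 4.33-fold (standard error 0.17, edgeR fdr = 0.000168). These loci are the last of a run of 5 consecutive tested genes that were all higher with salt. The locus just before the pair went from 2.51 to 32.7 CPM (log2 fold change 3.72, edgeR fdr = 3.67e-05), and the locus before that from 29.0 to 323 CPM (3.50, edgeR fdr = 7.52e-05). The locus after the pair was at 24.9 CPM in control and 25.2 CPM in treated roots (log2 fold change 0.04, edgeR fdr = 0.786). Summed over the 5 genes of the run, control replicates 1 to 3 held 1700, 1129 and 1248 CPM and treated replicates 9088, 7858 and 9579 CPM, a ratio of means of 6.50. The study counted uniquely aligned reads, so reads that fit more than 1 locus equally well are missing from these values. Whether neighbouring loci are similar in sequence was not examined.

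Under the same rule, the largest loss in CPM was that of Phvul.003G127500. Its control libraries held 4471, 5556 and 5662 CPM, and its treated libraries 2236, 2251 and 2517 CPM. Replicate 1 was the lowest control but still lay well above every treated library. The log2 fold change was -1.14, or 2.21-fold lower (standard error 0.14, edgeR fdr = 0.000815). Its mean of 5230 ± 659 CPM made it the second most counted locus of control roots, and at 2335 ± 158 CPM it was at place 11 in treated roots (SD, n = 3). Neither adjacent locus was a DEG lower with salt. The locus just after it was higher with salt, at 7.68 CPM in control and 17.1 CPM in treated roots (log2 fold change 1.17, edgeR fdr = 0.000352), and the locus just before it changed by less than 2-fold (log2 fold change -0.50, edgeR fdr = 0.0119).

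Phvul.010G124700, next by loss in CPM among these DEGs, was at 1651, 2566 and 2121 CPM in control replicates 1, 2 and 3. In treated replicates it was at 750, 824 and 791 CPM. The treated values lay within 100 CPM of each other, and the control values were further apart, with replicate 1 the lowest. The log2 fold change was -1.40, or 2.65-fold lower (standard error 0.18, edgeR fdr = 0.000896). The next locus in the table went from 26.2 to 13.1 CPM, just short of the 2-fold limit (log2 fold change -0.97, edgeR fdr = 0.000339). A choice by change in CPM favours genes with many reads.

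**Figure D2:**
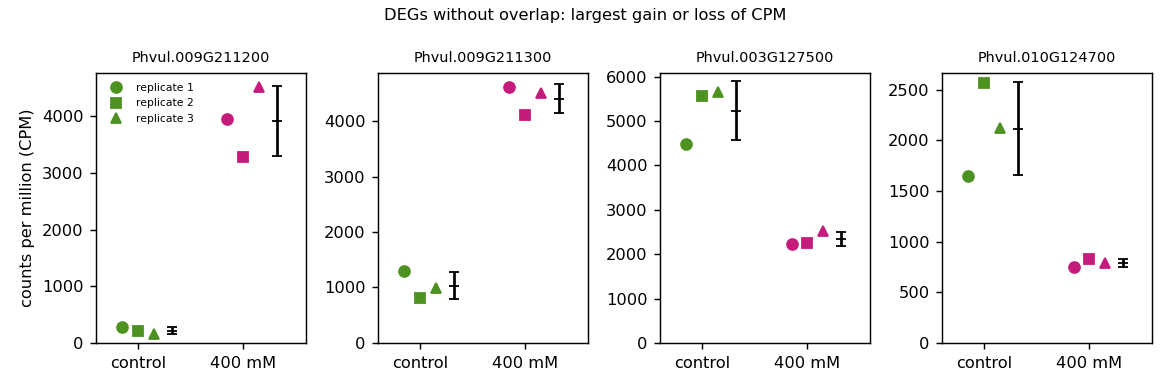
CPM of the 2 genes with the largest gain and the 2 with the largest loss among DEGs whose groups do not overlap, by condition, with a symbol for each replicate and the mean ± SD of 3 libraries beside them. Vertical axes start at 0 and differ between panels. Phvul.009G211200 shows the largest ratio, 18.2-fold, and the other 3 genes range from 2.21-fold to 4.33-fold.

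The DEGs took up a different share of the reads in the 2 conditions. In control replicates 1, 2 and 3 the genes higher with salt took 3.20%, 2.99% and 2.95% of counts, and in treated replicates 9.83%, 10.98% and 9.59%. The genes lower with salt took 7.13%, 7.23% and 7.35% in control and 2.60%, 2.43% and 2.73% in treated replicates. Treated replicate 2 had the highest share on the one set and the lowest on the other. The means were 3.05 ± 0.133% and 10.1 ± 0.739% for the higher genes, and 7.24 ± 0.111% and 2.59 ± 0.149% for the lower genes (SD, n = 3). These genes were chosen on the same libraries, so the shares describe the size of the exchange and carry no test.

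Few genes carried much of the exchange. Of the summed gain in CPM over the 1090 higher DEGs, the 10 genes with the largest gain held 24.0% and the top 100 held 57.6%. Of the summed loss over the 929 lower DEGs, the 10 largest held 20.7% and the top 100 held 56.5%. Among the 100 loci with most counts in control roots, 12 were lower and 2 higher with salt. Among the 100 with most counts in treated roots, 20 were higher and 2 lower, and 67 loci stood in both lists. Over all tested genes 6.75% were higher and 5.75% lower with salt. Choosing loci by their control counts favours falls, and choosing them by treated counts favours rises.

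**Figure D3:**
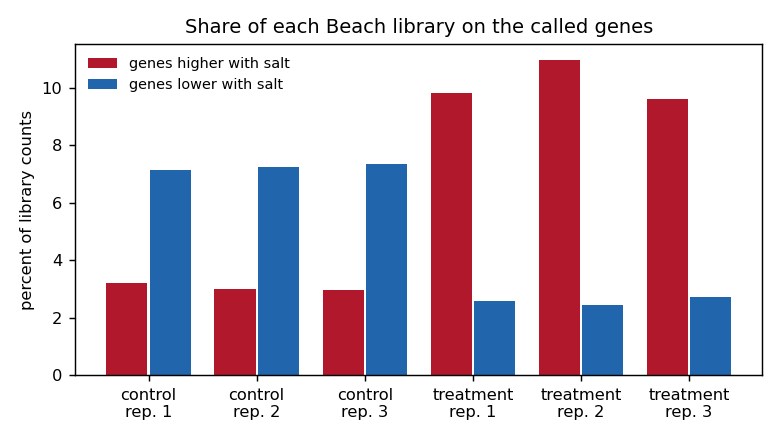
Percent of all counts of each Beach library (vertical axis) that fell on the 1090 genes higher and the 929 genes lower with salt, 1 pair of bars per library. The higher genes take 2.95% to 3.20% of control libraries and 9.59% to 10.98% of treated libraries, and the lower genes 7.13% to 7.35% and 2.43% to 2.73%.

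The groups were also compared on measures of the whole library, which do not depend on which genes are called. With libraries thinned to the same depth, 23027 ± 15.9 loci were detected in control and 23047 ± 53.3 in treated roots (SD, n = 3). The 10 most counted genes of each library took 3.94 ± 0.725% in control and 3.76 ± 0.127% in treated roots, the top 100 took 12.99 ± 0.968% and 13.3 ± 0.125%, and the top 500 took 28.2 ± 0.673% and 28.4 ± 0.333%. The number of genes that together held 50% of counts was 1744 ± 35.0 and 1743 ± 29.9. Two-sided exact permutation tests gave p from 0.8 to 1, and 1 for each of the 5 measures after Benjamini-Hochberg adjustment. With 0.1 as the smallest p possible, these tests could not have passed 0.05. Some of these values rested on control replicate 1. Without it, treatment minus control moved from -0.18 to -0.60 percentage points for the top 10, where all treated libraries then lay below both controls (exact permutation p = 0.1, the smallest possible). It turned from 0.28 to -0.27 percentage points for the top 100, from 0.20 to -0.18 for the top 500, and from -1 to 19.2 for the number of genes holding 50% of counts.

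Genes higher with salt often started from few reads. Their median was 9.34 CPM in control and 33.1 CPM in treated roots. Genes lower with salt started from a median of 27.9 CPM and were at 9.11 CPM with salt. Over all tested genes the medians were 28.9 and 28.4 CPM. In control roots 63 of the higher DEGs had a mean of at most 1 CPM, of which 37 were between 10 and 100 CPM with salt and 3 above 100 CPM. These 63 passed the filter only through their treated libraries and so had to differ. Among all DEGs, 299 higher and 251 lower genes passed it through the libraries of a single group. The low control levels of higher DEGs, and the low treated levels of lower DEGs, thus follow in part from the choice of genes. A further 506 started between 1 and 10 CPM, 467 between 10 and 100 CPM and 54 above 100 CPM. Of the lower DEGs, 175 started above 100 CPM, and 127 of these were between 10 and 100 CPM with salt and 3 between 1 and 10 CPM. Of all lower DEGs, 15 reached a treated mean of at most 1 CPM.

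Complete silence in either condition was rare. No count was found in any control library for 9 loci that had at least 10 counts in every treated library. Of these, 2 passed the filter of 5 CPM, and both were called as higher. With no count in control they could pass only through treated libraries and so had to differ, which makes their calls no separate result. The stronger of them, on chromosome 6, held 988, 976 and 691 counts in treated replicates 1, 2 and 3, and was at least 300.4-fold higher with salt when each control library is set at the 3 counts that a count of 0 allows. The other, on chromosome 2, held 188, 197 and 191 counts and was at least 64.7-fold higher by the same floor. The 7 remaining loci had treated means of 0.531 to 2.02 CPM. In the opposite direction 2 loci had no count in treated libraries and at least 10 in every control library, with control means of 0.558 and 1.03 CPM. Both were too low for the test. The floors cover counting error only.

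The share of genes called also varied with read level. When tested genes were divided into 5 equal classes by mean log2 CPM, 10.2% of the class with the fewest reads were higher and 10.3% lower with salt. In the middle class the shares were 5.29% and 4.89%, and in the class with the most reads 5.82% and 4.64%. The fitted changes were also most widely spread in the lowest class, with an SD of 1.09 on the log2 scale against 0.78 in the middle class and 0.77 in the highest. The filter bears on the lowest class. In it 689 of 3231 genes passed through the libraries of a single group, with no library of the other group above 5 CPM, and such genes had to differ between the groups. Of these, 243 were called higher and 228 lower. Among the rest of that class 3.38% were higher and 4.17% lower, with an SD of 0.55, below the 4.98% and 4.70% of the rest of the middle class. Leaving such genes out removes only genes whose groups were separate, so neither set of shares ranks the classes. Over all classes 299 higher and 251 lower DEGs passed the filter in this way. The classes are of reads per gene, not of transcripts per length.

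By the chromosome number that each locus identifier carries, DEGs were found on all 11 chromosomes. Genes higher with salt made up between 5.49% of tested genes on chromosome 10 and 8.98% on chromosome 4. Genes lower with salt made up between 4.15% on chromosome 4 and 6.92% on chromosome 10. Chromosome 4 held 80 higher and 37 lower DEGs among 891 tested genes, and chromosome 10 held 50 and 63 among 911. On the other chromosomes the higher genes ranged from 6.09% to 7.29% and outnumbered the lower genes. The median log2 fold change lay between -0.05 and 0.00 on each chromosome. These shares are given against 6.75% and 5.75% over all genes, as a description without a test.

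DEGs had an adjacent DEG of their own direction at a higher rate than tested loci at large had one. Taking tested loci in the order of their identifiers, 271 of 1087 higher DEGs on chromosomes (24.9%) had a directly adjacent higher DEG, and 12.9% of all 16128 tested loci on chromosomes had one. Of the 929 lower DEGs, 168 (18.1%) had an adjacent lower DEG, against 11.1% of all tested loci. An adjacent gene of the opposite direction was found for 94 higher DEGs (8.65%) and for 94 lower DEGs (10.1%), below the 11.1% and 12.9% of all tested loci. Among DEGs at least 8-fold higher, 49 of 152 (32.2%) had a higher neighbour, among those between 4-fold and 8-fold 39 of 178 (21.9%), and among those between 2-fold and 4-fold 183 of 757 (24.2%). Among lower DEGs the corresponding values were 7 of 57 (12.3%), 23 of 122 (18.9%) and 138 of 750 (18.4%). The class of at least 8-fold thus had the highest share among higher DEGs and the lowest among lower DEGs. Its 95% binomial intervals ran from 24.9% to 40.3% and from 5.08% to 23.7%. Whether the share follows the size of the change was not tested. Neighbouring genes are not independent, and no test was made. The DEGs also include 299 higher and 251 lower genes that passed the filter only through the group where they were high. Such genes had to differ, and no share of neighbours was computed without them. Reads without strand information can also come from an overlapping neighbour, which the identifiers do not show.

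**Figure D4:**
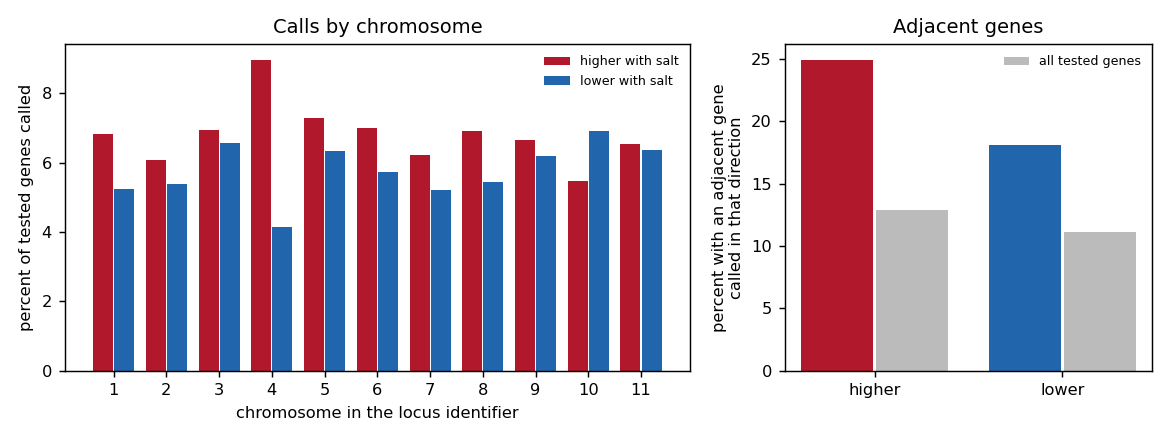
Left, percent of tested genes called higher or lower with salt (vertical axis) on each of the 11 chromosomes. Right, percent of higher and of lower DEGs with an adjacent tested gene called in the same direction (coloured), beside the percent of all tested genes with such a neighbour (grey). The coloured bars stand at 24.9% and 18.1%, the grey bars at 12.9% and 11.1%. The DEGs include genes that passed the filter through a single group.

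Runs of 3 or more adjacent genes in the same direction numbered 25 for genes higher with salt, with 85 genes in all and at most 6 in a run. For genes lower with salt there were 10 runs with 32 genes and at most 4 in a run. In 12 of the 25 and 5 of the 10 runs the loci also followed each other without a gap in the table. The densest stretch of higher genes was on chromosome 2, where 11 of 20 consecutive tested genes were DEGs higher with salt. On other chromosomes the densest stretch of this length held between 4 and 8. Within the chromosome 2 stretch the log2 fold change ran from 1.59 to 7.18 with a median of 7.06 as fitted. Of the 11 genes, 4 had a control mean under 1 CPM, the lowest at 0.0851 CPM, so they passed the filter through treated libraries and their fitted values are no measure of size. Summed over the 11 genes, control replicates 1, 2 and 3 held 57.5, 71.1 and 65.7 CPM and treated replicates 1289, 1721 and 929 CPM. The treated libraries were all more than 10-fold above the controls, with replicate 3 the lowest and replicate 2 the highest of them.

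The densest stretch of lower genes was on chromosome 11, with 8 DEGs among 20 tested genes and log2 fold changes from -2.13 to -1.07. Summed over these 8, control replicates 1, 2 and 3 held 1016, 622 and 747 CPM and treated replicates 243, 218 and 200 CPM. The control mean was 3.61-fold above the treated mean, and control replicate 1 was the highest library. On other chromosomes the densest stretch of lower genes held between 4 and 6. Stretches were picked as the highest of many after the values were seen, and their values are descriptions.

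The common biological coefficient of variation, edgeR's estimate of the spread beyond counting error, was 0.169 among control and 0.108 among treated libraries. Control replicate 1 stood apart from the other controls. Its mean distance from them, computed over log2 CPM of tested genes, was 54.4, while control replicates 2 and 3 were 28.4 apart, closer than any pair of treated replicates (29.6 to 35.9). Control replicates lay over 4-fold apart for 65 tested genes, and replicate 1 was the farthest of the 3 in 53 of them. Treated replicates lay over 4-fold apart for 30 genes, with replicate 3 the farthest in 16, replicate 2 in 11 and replicate 1 in 3. With control replicate 1 left out, 2105 genes were called, of which 1874 were also called with all 6 libraries. The 231 genes gained were 147 higher and 84 lower with salt, and 145 genes were lost. In the study's sample list, control replicate 1 had a lower GC content than every other Beach library. Its share of uniquely mapped reads was the lowest among controls, and that of treated replicate 2 the lowest of all Beach libraries. Whether this bears on the spread was not tested.

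Each library was also placed between the groups on genes that were called without it. For each of these genes, 0 stands for the mean of the other control libraries and 1 for the mean of the other treated libraries. Over genes higher with salt, the median position was 0.07 for control replicate 1, 0.04 for replicate 2 and 0.00 for replicate 3. Treated replicates 1, 2 and 3 lay at 0.96, 1.08 and 0.90. Over genes lower with salt the controls lay at 0.06, 0.11 and 0.00 and the treated libraries at 0.94, 1.09 and 0.89. Each library thus fell with its own group in both directions, and treated replicate 2 lay furthest along in both. The filter of 5 CPM had used all 6 libraries, however, including the placed library. For genes that passed it through a single group, the side of that library was set beforehand. The positions are therefore a description and not a test. Control replicate 1 had the widest spread over genes among the controls, with the middle 50% of higher genes between -0.12 and 0.29.

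**Figure D5:**
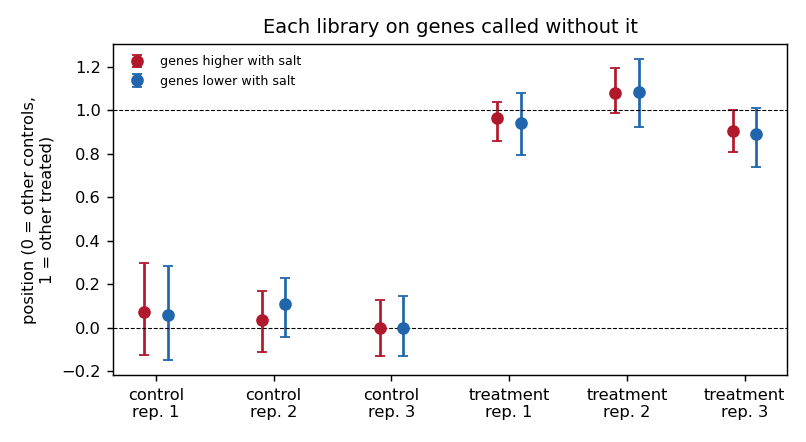
Position of each Beach library (horizontal axis) between the mean of the other control libraries (0) and that of the other treated libraries (1) on the vertical axis, for genes called as higher or lower with salt when that library was left out. The genes had passed the filter of 5 CPM with all 6 libraries. Points are medians over genes and bars run from the first to the third quartile. Control libraries lie between 0.00 and 0.11 and treated libraries between 0.89 and 1.09.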

How the data were processed

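The authors trimmed the reads with Trimmomatic 0.36, mapped them with STAR to the genome of common bean and used featureCounts to count unique alignments over exons. The deposited values are raw counts per locus for 12 libraries. The 6 Beach columns were used, with 3 libraries per group and 29205979 to 33300428 counts each. The methods describe replicates as independent biological samples. No replicate was a copy of another (chi-square per degree of freedom within groups, 14.6 to 77.3).

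Genes that exceeded 5 CPM in 3 or more libraries were scaled by TMM and compared by edgeR 4.0.16 (quasi-likelihood test, Benjamini-Hochberg adjustment over all tested genes) in R 4.3.3 with limma 3.58.1. Standard errors were derived from the F statistic. CPM were computed from library totals, and distances used log2 CPM with 2 as the prior count. DESeq2 1.42.0 and edgeR's exact test, which the authors' code names, were alternatives. Figures were drawn with Python 3.11.15 and matplotlib 3.10.9. The edgeR fit and its calls were tested on simulated counts. The steps for neighbours, permutation tests and thinning were checked on small made-up examples, and the other steps were not tested in this way. Named genes were the 2 with the largest gain and the 2 with the largest loss of mean CPM among DEGs with at least 10 counts in every library and no overlap between groups. This comparison, its lists and its rules were chosen with earlier results of these data known. Stretches, neighbours by fold class, the count of genes that passed the filter through a single group, the positions of libraries and the counts without control replicate 1 were chosen after the values here were seen. Gene lists by function were not analysed here, as the loci carry no names.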

Additional observations from a re-analysis of the deposited data

How the results depend on the processing

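The numbers of DEGs depended mainly on the limits. Without a filter on low counts there were 3392 (1796 higher, 1596 lower), without a minimum on fold change 7047 (3317 higher, 3730 lower), and with the fold change tested against 2 there were 881 (549 higher, 332 lower). The direction with more genes therefore changed without a minimum on fold change. With a filter of 1 CPM there were 2859 DEGs (1529 higher, 1330 lower). Of these, 230 genes were at least 8-fold higher and 107 at least 8-fold lower. The other tests, scalings and depths gave 2011 to 2044 DEGs, with 51.8% to 55.1% of them higher. When single libraries were left out, 1851 to 2105 DEGs were found on the same tested genes, and 1535 to 1860 when genes were filtered again. In the latter, lower genes outnumbered higher genes without any of the treated replicates (746 against 789 without treated replicate 2), since the minimum of 3 libraries then removes genes that exceed 5 CPM in treated roots alone.

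The share of higher DEGs with a neighbour of the same direction was 29.4% with a filter of 1 CPM, 24.3% (without control replicate 2) to 27.7% (without control replicate 1) with a library left out, and 19.1% when the next listed locus was used, an alternative added after the data were seen. For lower DEGs the share was 23.1% with a filter of 1 CPM, and 12.1% with the next listed locus. In that setting 8.31% and 7.14% of all tested loci had such a neighbour. The share over all tested loci was not computed with the 1 CPM filter or with a library left out. The values under those settings therefore have no background beside them. The change in the share of counts on lower DEGs ranged from -5.25 (without control replicate 1) to -4.24 percentage points (without treated replicate 2) with a library left out. With at most 3 counts in place of 0, 50 loci were silent in control and 29 in treated roots. All 5 differences in library composition changed sign with some library left out. That of the top 10 ranged from -0.60 (without control replicate 1) to 0.05 percentage points (without control replicate 2). The 4 named genes kept their calls under every alternative run for them. Their calls were not recorded without a minimum on fold change, nor with the fold change tested against 2. The latter was the strictest setting, with 881 DEGs.

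Replicates of the same number in the control and treated groups did not deviate together (correlations -0.10, 0.15 and -0.05), so the numbers were not used as pairs. With the replicate block 2027 DEGs were found, 1099 higher and 928 lower, and 1986 of the 2019 were kept. Depth limits statements on loci near 3 counts, which corresponds to 0.0901 to 0.103 CPM.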

Other observations

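The locus with the most counts over the 6 libraries was not among the DEGs. It held 6520, 15170 and 15827 CPM in control replicates 1, 2 and 3 and 8197, 7224 and 8485 CPM in treated replicates (log2 fold change -0.64, edgeR fdr = 0.150). Control replicate 1 lay below all treated libraries and the other controls far above them. Without control replicate 1 the log2 fold change was -0.93 (edgeR fdr = 0.0012), still under 2-fold. It was singled out after its values were seen.

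Among the 115 listed loci on unplaced scaffolds, 26 were tested, of which 3 were higher and 0 lower with salt by edgeR at both limits. These are 11.5% (95% binomial interval 2.45% to 30.2%) and 0% (0% to 13.2%). Over all tested genes the shares were 6.75% and 5.75%, which lie within these intervals.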
